A study of Rattus norvegicus with 115 samples.

Results

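6 transcripts associated with neutrophils were described across 115 arrays of rat brain: S100a8, S100a9, Lcn2, Csf3r, Il1r2 and Fcnb. They were 6 of the 14217 genes with a probe set assigned to that gene alone, and each of the 6 had 1 such probe set, so no choice between probe sets was needed. The members were chosen by name and not by their values in a given contrast, but results of these arrays were known when they were chosen.

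Neutrophils are short-lived phagocytes that are made in the bone marrow, circulate in the blood and enter tissue within hours of an inflammatory signal. In the brain parenchyma they are normally rare, and they enter by rolling on selectins, binding to endothelial adhesion molecules and following chemokines that signal through Cxcr2. S100a8 and S100a9 form calprotectin, an abundant calcium-binding complex of the neutrophil cytosol that is released as an alarm signal. Lcn2 encodes lipocalin 2, which binds bacterial siderophores and is also made by reactive astrocytes and endothelium. Csf3r is the receptor of granulocyte colony-stimulating factor, Il1r2 is a decoy receptor that binds interleukin 1 without signalling, and Fcnb encodes ficolin B, a pattern-recognition lectin of myeloid cells. Monocytes also express S100a8, S100a9, Csf3r and Fcnb.

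The arrays came from 60 rats that carried 9L tumors. The 9L line is a rat glioma line, and its cells had been injected into the right caudate nucleus of Fisher rats. Irradiation took place 10 days after implantation, either as microbeam radiation (MRT, an array of thin beams with 400 Gy in the beams and 18 Gy in the valleys between them) or as a uniform broad beam (BB) at a dose a little under the valley dose. Samples date from 6 h, 48 h, 8 d and 15 d after irradiation. Untreated rats with tumors served as controls at 6 h (5 rats) and 48 h (4 rats), with both tissues of each, and at 8 d, where 4 tumors and 4 contralateral samples came from 5 rats. There was no untreated group at 15 d. The tumor gave 59 arrays and the opposite, contralateral hemisphere of these rats gave 56 arrays. The contralateral tissue thus also came from tumor-bearing rats. Contralateral samples of irradiated rats carry the same dose entries as the tumors, so they are not taken here as unirradiated tissue. The dose in that hemisphere itself was not measured here. From 6 h to 15 d the numbers of MRT tumors were 9, 8, 7 and 4 with 9, 7, 6 and 4 contralateral samples. The numbers of BB tumors were 6, 4, 4 and 4 with 6, 3, 4 and 4 contralateral samples. Each replicate is another rat, identified by the rat number in the titles.

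The deposited values are intensities normalized by the authors, and differences are given on the log2 scale with the standard error (SE) of the limma fit. A gene was called at a Benjamini-Hochberg adjusted p under 0.05 over all 14217 genes. The array medians lay between 117 and 147 except for the contralateral sample of untreated rat 18 at 48 h, with 165. The 3′ to 5′ difference of the Gapdh control probe sets, a sign of RNA quality, was at most 0.84 on the log2 scale except in the BB tumor of rat 53 at 48 h, with 2.35. All 35 BB arrays have their own label set with other processing notes, so the beam and the label set cannot be told apart in any comparison that involves BB. In bulk tissue, fewer cells of a type and less RNA per cell cannot be told apart.

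The start regions of the members are shown first, as a description. Their part in the courses of the transcripts was not tested. RefSeq (GRCr8) start regions were matched for 4 of the 6 members, namely S100a9, Fcnb, Lcn2 and Csf3r. The S100a9 region is chr2:178490623-178490872, the Fcnb region is chr3:31800189-31800438 and the Lcn2 region is chr3:36081852-36082030, all on the minus strand. Each is written 5′ to 3′, and capitals mark letters that match a motif. The S100a9 and Fcnb regions hold all 250 bases before the table's start site. For Lcn2 the 71 bases next to that start site lie inside the annotated gene and are left out, so that the first 179 of its 250 bases are shown.
S100a9: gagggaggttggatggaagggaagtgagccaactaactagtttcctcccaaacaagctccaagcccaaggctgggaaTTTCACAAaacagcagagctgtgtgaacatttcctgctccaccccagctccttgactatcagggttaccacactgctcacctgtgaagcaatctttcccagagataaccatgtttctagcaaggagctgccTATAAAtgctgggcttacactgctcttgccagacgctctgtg
Fcnb: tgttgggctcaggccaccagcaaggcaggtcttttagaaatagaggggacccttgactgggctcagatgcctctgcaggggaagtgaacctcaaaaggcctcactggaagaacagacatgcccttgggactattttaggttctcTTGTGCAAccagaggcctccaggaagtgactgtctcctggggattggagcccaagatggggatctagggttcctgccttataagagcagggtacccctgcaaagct
Lcn2: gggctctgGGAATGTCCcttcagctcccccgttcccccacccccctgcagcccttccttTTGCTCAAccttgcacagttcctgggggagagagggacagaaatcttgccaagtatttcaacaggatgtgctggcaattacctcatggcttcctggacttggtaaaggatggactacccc

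3 motifs were searched on both strands in the full 250 bases before each start site in the table, including the bases inside the gene for Lcn2 (71) and Csf3r (94), and distances are counted from that start site: TATAAA, the C/EBP motif TTGNGNAA and GGANNTTCC, the inner part of an NF-kB site. C/EBP factors direct granule and alarm genes in myeloid cells, and NF-kB responds to interleukin 1. In S100a9, TATAAA lies 42 to 37 bases before the start site and a C/EBP match on the opposite strand lies 173 to 166 bases before it. Fcnb holds a C/EBP match 106 to 99 bases before its start site. Lcn2 holds a C/EBP match 191 to 184 bases before its start site and an NF-kB match at 242 to 234, both on the opposite strand. Csf3r holds none of the 3 motifs in this window. Among 33469 start regions of this length, 12.9% hold TATAAA, 11.7% the C/EBP motif and 3.36% the NF-kB letters, so these are matches of letters and not shown binding sites.

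In untreated contralateral hemisphere all 6 transcripts were dim. Over the 3 untreated groups there, S100a8 ran from 25 to 45, S100a9 from 29 to 55, Lcn2 from 14 to 40, Il1r2 from 14 to 31, Csf3r from 30 to 98 and Fcnb from 34 to 100 in intensity. Over all 115 arrays the highest intensity was 435 for S100a8 and 1442 for S100a9, both in contralateral hemisphere 6 h after MRT, and 99 for Lcn2, 533 for Csf3r, 194 for Il1r2 and 4954 for Fcnb, all in irradiated tumors at 8 d. Values of different probe sets are not compared with each other, and a step of 1 in intensity is already 0.11 on the log2 scale at 13, the lowest value of Il1r2.

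At 6 h after MRT, all 6 transcripts rose in the contralateral hemisphere (6 of 6 higher, against 5.36% of all genes called higher). The calprotectin genes rose most. S100a9 had intensities of 29, 33, 34, 38 and 44 in untreated hemispheres, and its lowest, median and highest intensities in the 9 MRT hemispheres were 50, 850 and 1442. The groups did not overlap, and the difference was 4.03 ± 0.40 (SE), or 16.3-fold (adjusted p = 1.93e-11, limma). S100a8, its partner, had 25, 25, 28, 33 and 34 in untreated hemispheres and 32, 271 and 435 as lowest, median and highest after MRT. All 9 MRT values lay above the untreated median, and the groups overlapped only through rat 10. The S100a8 difference was 2.82 ± 0.32, or 7.04-fold (adjusted p = 8.18e-10, limma).

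**Figure D1:**
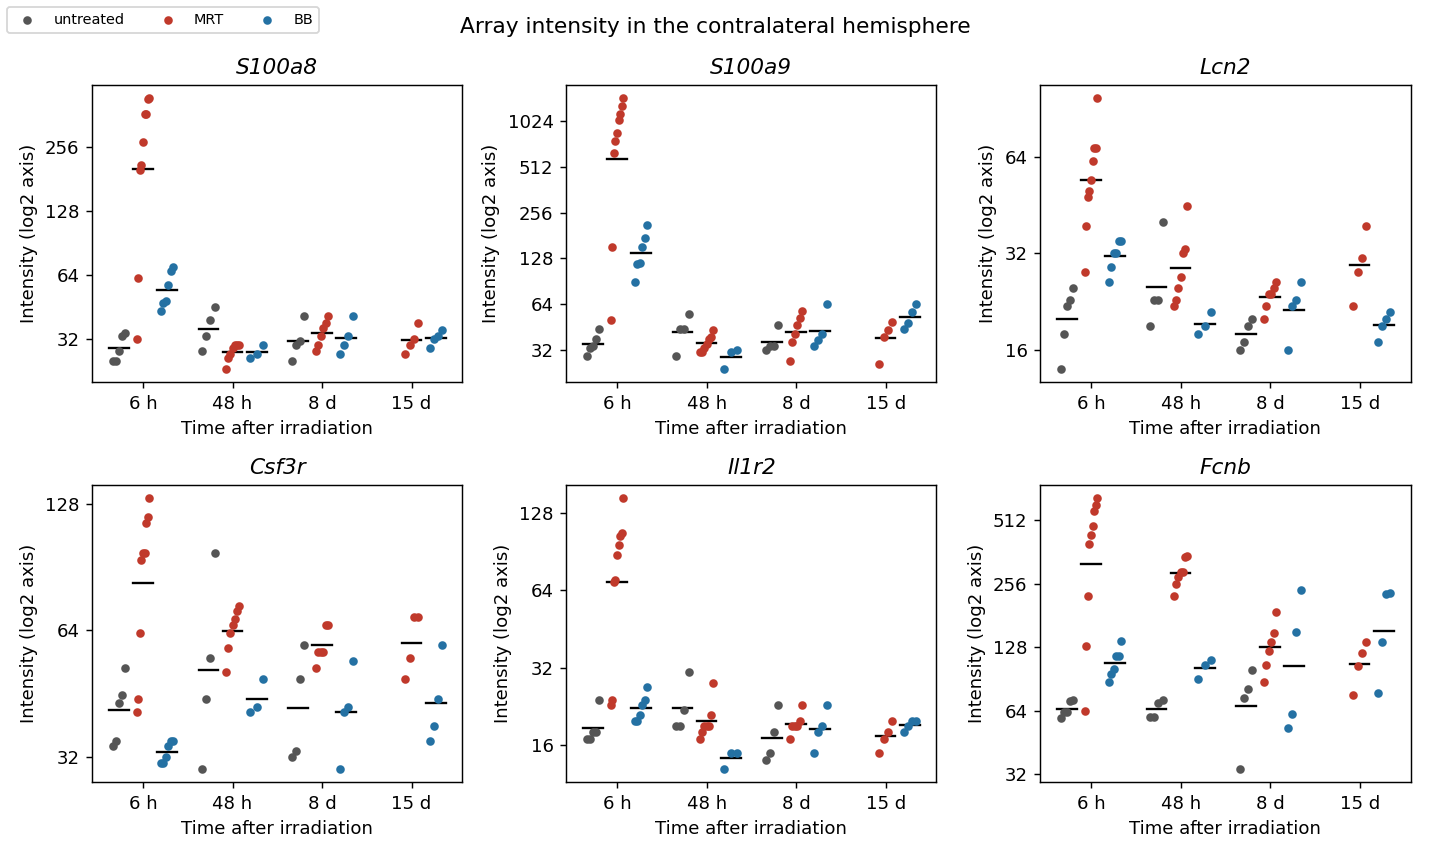
Intensity (log2 axis) of the 6 transcripts in the contralateral hemisphere by time after irradiation; each point is 1 rat, colored by treatment, and each bar is the group mean of log2 intensity. The MRT group at 6 h stands above the untreated group for all 6 transcripts, and at 48 h the MRT group stands clear of the untreated group for Fcnb, with 224 to 346 against 60 to 72.

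The other 4 rose by less. Lcn2 had 14, 18, 22, 23 and 25 in untreated hemispheres and 28, 54 and 97 as lowest, median and highest after MRT. The groups did not overlap, and the difference was 1.44 ± 0.18, or 2.70-fold (adjusted p = 1.45e-08, limma). Il1r2 had 17, 17, 18, 18 and 24 in untreated hemispheres, 23 and 24 in MRT rats 7 and 10, and 69 to 146 in the other 7 MRT rats. Its difference was 1.89 ± 0.24 (adjusted p = 1.38e-08, limma). Fcnb had 59 to 72 in untreated hemispheres and 64, 436 and 653 as lowest, median and highest after MRT, a difference of 2.29 ± 0.34 (adjusted p = 1.18e-06, limma). Csf3r had 34 to 52 in untreated hemispheres and 41, 98 and 132 as lowest, median and highest after MRT, a difference of 1.01 ± 0.21 (adjusted p = 3.71e-04, limma). The groups overlapped through rats 7 and 10 for Il1r2 and Csf3r and through rat 10 for Fcnb, and through no other MRT rat.

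Rats 7 and 10 stood apart within the MRT group at 6 h. In the hemisphere of rat 10, S100a9 was 50, S100a8 32, Il1r2 24, Fcnb 64 and Csf3r 44, at or near untreated values, whereas Lcn2 was 50. In the hemisphere of rat 7, S100a9 was 153, S100a8 62, Il1r2 23, Fcnb 130, Csf3r 41 and Lcn2 28. The same 2 rats had the lowest S100a8 and S100a9 in the MRT tumors, with S100a9 at 99 in rat 7 and 279 in rat 10 against 462 to 826 in the others. The mean log2 intensity of 11 neutrophil attractants and growth factors was the lowest of the 9 hemispheres in rat 7 (5.38) and the highest in rat 10 (6.62). The 6 microglia markers were higher in these rats (7.31 and 7.08) than in the other 7 (5.78 to 6.65), and the 10 reactive astrocyte markers were lower (8.44 and 8.29 against 9.13 to 9.31). The part of these other genes in the low values was not tested. Leaving out any single array of the 6 h groups kept all 6 calls, and the S100a9 difference then ran from 3.86 to 4.47, the latter without rat 10.

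**Figure D2:**
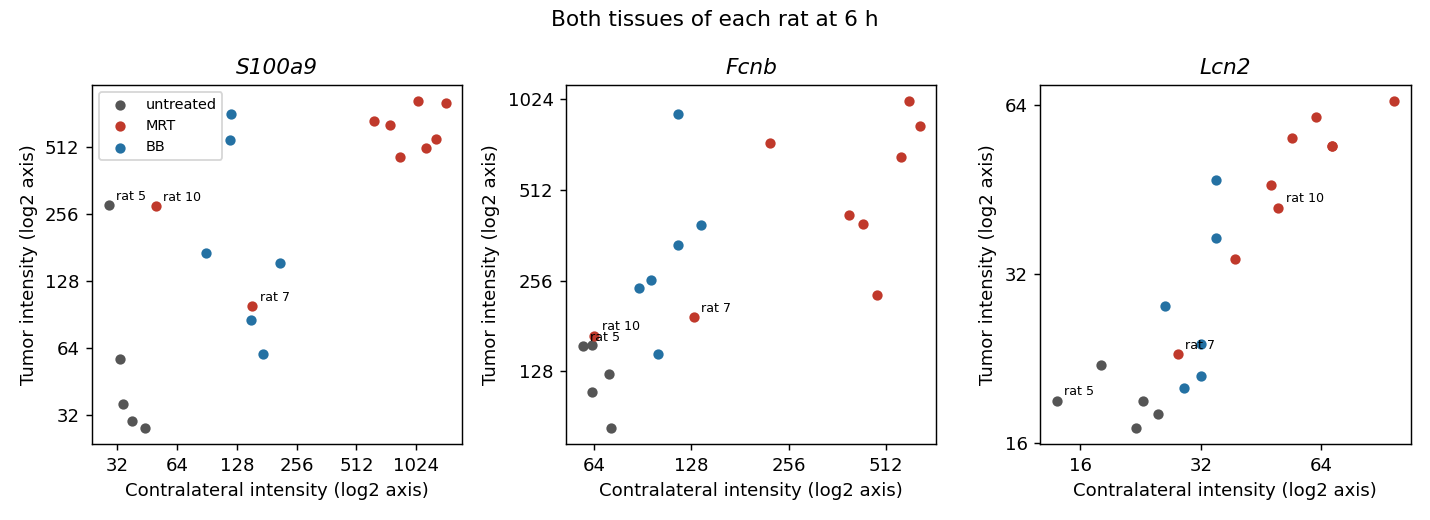
Intensity of S100a9, Fcnb and Lcn2 in the tumor (vertical, log2 axis) against the contralateral hemisphere (horizontal, log2 axis) of the same rat at 6 h; each point is 1 rat with both tissues, colored by treatment. Rats 7 and 10 lie apart from the other 7 MRT rats for S100a9, and untreated rat 5 has a high S100a9 in the tumor (281) but not in the hemisphere (29).

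After the broad beam, 3 of 6 transcripts rose in the contralateral hemisphere at 6 h, S100a9, S100a8 and Lcn2 (background 8.92% of genes called higher). S100a9 had lowest, median and highest intensities of 89, 135 and 212 in 6 BB rats, a difference from untreated of 1.97 ± 0.43 (adjusted p = 8.45e-04, limma). S100a8 had 43, 52.5 and 70 (difference 0.92 ± 0.34, adjusted p = 0.047, limma) and Lcn2 had 26, 32 and 35 (0.65 ± 0.19, adjusted p = 0.0129, limma). None of these 3 overlapped the untreated group, and Fcnb, which was not called, did not overlap it either. How many of all genes did not overlap was not counted. The S100a8 call was lost without any of untreated rats 1, 2, 3 and 4 or BB rats 44, 45, 46, 48 and 49 (adjusted p 0.0518 to 0.112), and the Lcn2 call without untreated rat 5 (0.0569). With the spread taken from these 2 groups alone, Fcnb was called higher and Csf3r lower as well (adjusted p = 5.26e-04 and 0.0368, limma). In the fit over all hemispheres, Csf3r at 31 to 35 differed from untreated by -0.32 ± 0.23, Il1r2 at 20 to 27 by 0.26 ± 0.26 and Fcnb at 88 to 137 by 0.72 ± 0.37, and these 3 did not pass the test.

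All 6 transcripts were higher after MRT than after BB in the contralateral hemisphere at 6 h (6 of 6, background 3.81%). The difference was 2.06 ± 0.38 for S100a9, 1.90 ± 0.30 for S100a8, 1.63 ± 0.22 for Il1r2, 1.57 ± 0.32 for Fcnb, 1.33 ± 0.20 for Csf3r and 0.79 ± 0.17 for Lcn2 (adjusted p from 2.49e-06 to 0.00491, limma). Csf3r did not overlap between the beams, with 41 to 132 against 31 to 35, while rats 7 or 10 brought the MRT range of the other 5 into the BB range. Where the spread was estimated from these 2 groups alone, Csf3r and Il1r2 kept the call and S100a8, S100a9, Lcn2 and Fcnb had adjusted p from 0.069 to 0.091.

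By 48 h S100a9 was back in the untreated range in the contralateral hemisphere and S100a8 was at or below it, while Fcnb was above it. From 6 h to 48 h after MRT, S100a9 fell by 4.02 ± 0.36, S100a8 by 2.87 ± 0.29, Il1r2 by 1.80 ± 0.21 and Lcn2 by 0.91 ± 0.16 on the log2 scale (4 of 6 lower, background 5.21%, adjusted p from 1.52e-12 to 3.19e-05, limma). S100a9 at 31 to 43 and S100a8 at 23 to 30 in the 7 MRT rats at 48 h did not overlap the values at 6 h. Csf3r changed by -0.38 ± 0.19 and Fcnb by -0.16 ± 0.31, which did not pass the test (adjusted p = 0.212 and 0.839, limma), although Csf3r passed without rat 7 (0.0489). After BB, S100a9 fell by 2.26 ± 0.51 from 6 h to 48 h (1 of 6 lower, background 2.09%, adjusted p = 0.00388, limma). With the spread taken from these 2 groups alone 5 of 6 were called there, Csf3r among them as higher at 48 h. How many of all genes were called in that fit was not counted.

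Fcnb was the 1 transcript of the 6 still higher than in untreated hemispheres 48 h after MRT (background 13.2%). Its intensities were 60, 60, 70 and 72 in untreated rats and 224, 291 and 346 as lowest, median and highest in 7 MRT rats. The groups did not overlap, and the difference was 2.14 ± 0.39 (adjusted p = 6.79e-05, limma). The S100a9 difference was -0.24 ± 0.45 and the S100a8 difference -0.36 ± 0.36. At the same time 10 of 14 macrophage and monocyte markers were higher (8 of 14 without the untreated array of rat 18), among them Cd68 by 2.40 ± 0.23, Cd14 by 2.56 ± 0.28 and Lyz2 by 2.58 ± 0.29. The summed intensity of the 13 neutrophil granule and surface genes measured was 609 to 1221 in untreated hemispheres and 1493 to 2028 after MRT, with no overlap. Few of these genes carried that sum. Without the untreated array of rat 18, 3 of the 13 were called higher and 0 lower. The 3 were Cybb by 4.12, Itgb2 by 1.74 and Itgam by 1.10, and the median difference of the 13 was -0.01. The part of these markers in the Fcnb values was not tested. Untreated rat 18, whose array median was the highest, had the highest untreated Csf3r (98), Lcn2 (40) and Il1r2 (31) of the 48 h group and the lowest S100a9 (29). Without that array, an alternative chosen after seeing the data, Fcnb differed by 2.10 (adjusted p = 4.81e-04, limma), and 5.74% of all genes were called higher and 2.8% lower, against 13.2% and 19% with it.

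Fcnb was also higher after MRT than after BB at 48 h, with 224 to 346 against 91, 105 and 111 (difference 1.49 ± 0.42, adjusted p = 0.0486, limma; 1 of 6 higher, background 1.67%). That call was lost without any of BB rats 50, 51 and 52 (adjusted p 0.313, 0.135 and 0.172). Later differences in the contralateral hemisphere did not pass the test for any of the 6 transcripts: after BB at 48 h (background 21.6% called in either direction), after MRT at 8 d (7.91%), after BB at 8 d (5.94%), and between the beams at 8 d (3.02%) and 15 d (5.87%). At an unadjusted p under 0.05, limma gave 2 of 6 transcripts and 2779 of 14217 genes for MRT at 8 d. The 2 transcripts were Fcnb with 0.93 ± 0.40 and Csf3r with 0.50 ± 0.24. Between the beams limma gave Csf3r at 8 d, where 1810 of all genes were given, and Lcn2 at 15 d, where 2774 were. It gave none of the 6 for BB at 48 h or 8 d. The comparison of BB with untreated hemispheres at 48 h includes the untreated array of rat 18, whose median of 165 was the highest. With the spread taken from the compared groups alone, Lcn2 and Fcnb passed for MRT at 8 d (adjusted p 0.0164 and 0.0466) and Lcn2 between the beams at 15 d (0.0316). At 15 d S100a8 ran from 27 to 38 in MRT rats and from 29 to 35 in BB rats, and S100a9 from 26 to 49 and from 44 to 64.

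In tumors at 6 h, 4 of 6 transcripts were higher after MRT than without treatment, S100a9, S100a8, Lcn2 and Fcnb (background 1.01%). S100a9 had 28, 30, 36, 57 and 281 in untreated tumors and 99, 558 and 826 as lowest, median and highest in 9 MRT tumors. The value of 281, from rat 5, lay within the MRT range, and the other 4 untreated tumors lay below it; the difference was 3.10 ± 0.57 (adjusted p = 6.59e-04, limma), or 3.69 without rat 5. S100a8 had 24, 24, 27, 33 and 92 in untreated tumors, the 92 again in rat 5, and 45, 201 and 330 as lowest, median and highest after MRT (2.25 ± 0.44, adjusted p = 0.0014, limma). The MRT values of rats 7 and 10 lay below that of untreated rat 5. Lcn2 had 17 to 22 in untreated tumors and 23, 54 and 65 as lowest, median and highest after MRT, with no overlap (1.29 ± 0.26, adjusted p = 0.00176, limma). Fcnb had 83, 109, 125, 155 and 156 in untreated tumors and 168, 422 and 1007 after MRT, also with no overlap (1.81 ± 0.48, adjusted p = 0.0342, limma). The Fcnb call was lost without any of untreated rats 1, 2, 3 and 4 or MRT rats 8, 11, 13 and 14 (adjusted p 0.0594 to 0.134), and with the spread taken from these 2 groups alone (0.0658).

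The receptors did not pass the test in tumors at 6 h. Il1r2 had 24, 28, 31, 37 and 59 in untreated tumors and 35, 81 and 141 as lowest, median and highest after MRT (1.19 ± 0.39, adjusted p = 0.155, limma; 0.0313 with the mean of 12 neuron markers as a covariate). Csf3r had 49 to 117 in untreated tumors and 55 to 152 after MRT (0.54 ± 0.30, adjusted p = 0.616, limma). Rat 5 had the highest untreated value of both receptors, 59 for Il1r2 and 117 for Csf3r. It also had the highest mean log2 intensity of the 14 macrophage and monocyte markers among the 5 untreated tumors, 9.44 against 7.97 to 8.19, and of the 13 neutrophil granule and surface genes, 6.52 against 5.52 to 5.57.

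**Figure D3:**
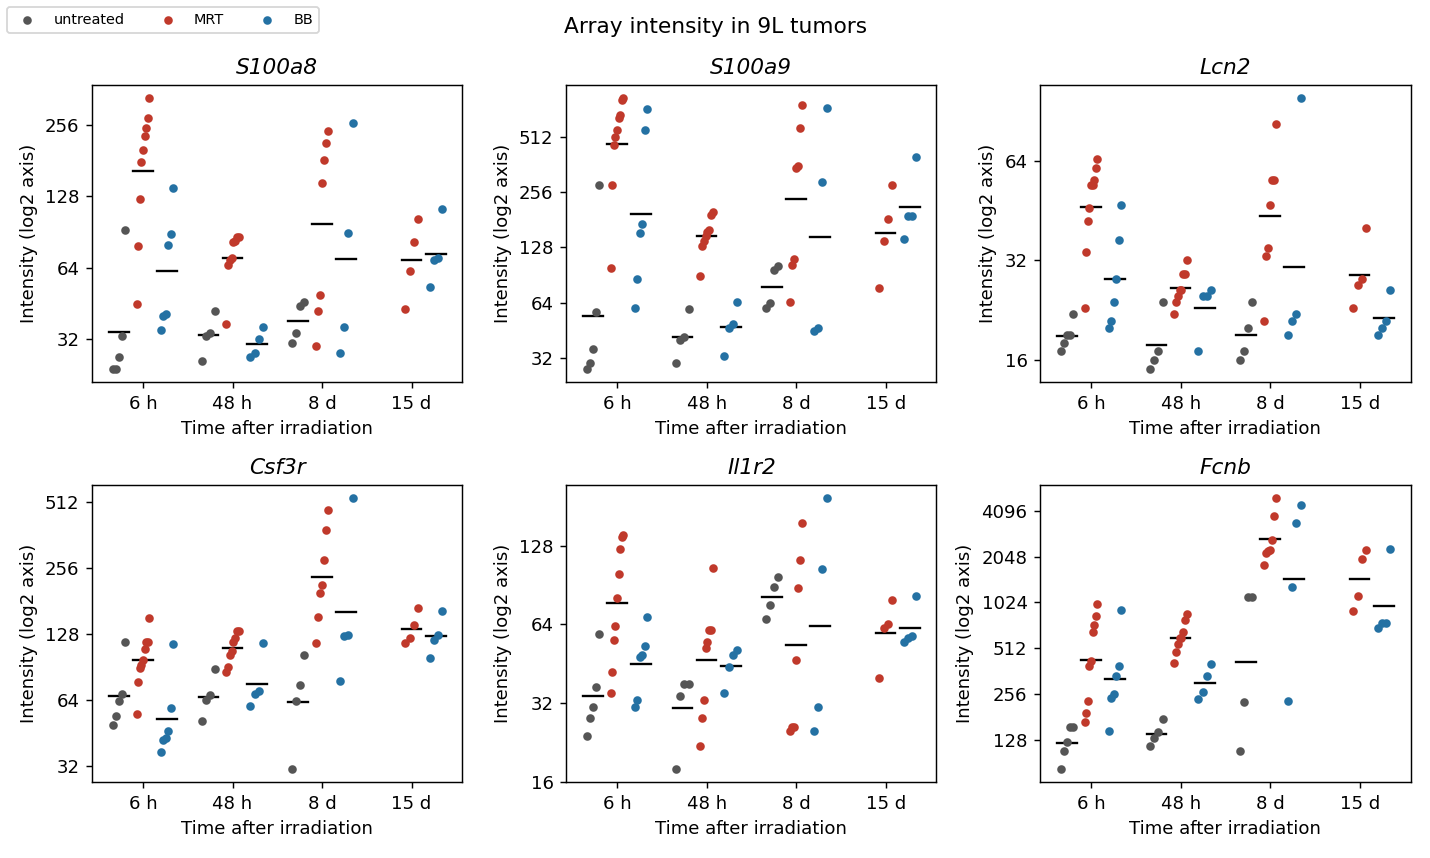
Intensity (log2 axis) of the 6 transcripts in 9L tumors by time after irradiation; each point is 1 rat, colored by treatment, and each bar is the group mean of log2 intensity. At 8 d the MRT tumors spread from 65 to 759 for S100a9, while Fcnb lies between 1815 and 4954 in all 7 of them.

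After the broad beam S100a9 was the 1 transcript of 6 that was higher in tumors at 6 h (background 10.3%). It had 60, 86, 154, 171, 554 and 725 in the 6 BB tumors, from below the lowest MRT tumor up to 725, and the difference from untreated was 1.84 ± 0.62 (adjusted p = 0.0339, limma). The call was lost without any of untreated rats 1, 2, 3 and 4 or BB rats 46, 47 and 48 (adjusted p 0.0566 to 0.107), and it was also lost with the spread taken from these 2 groups alone (0.16). S100a8 at 35 to 138 differed from untreated by 0.85 ± 0.48 and Fcnb at 146 to 912 by 1.39 ± 0.52 (adjusted p = 0.207 and 0.0555, limma). Fcnb passed without BB rat 44 (0.0273) or 45 (0.0497). BB rat 47 had the highest S100a8, S100a9, Lcn2, Csf3r and Fcnb of the 6 BB tumors.

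Between the beams, 3 of 6 transcripts were higher after MRT in tumors at 6 h (background 5.54%): S100a8 by 1.40 ± 0.42 (adjusted p = 0.0176, limma), Csf3r by 0.89 ± 0.29 (0.0274) and Lcn2 by 0.72 ± 0.24 (0.0355). The ranges overlapped for each of the 3. All 3 calls were lost without BB rat 46 (adjusted p 0.0756, 0.0872 and 0.0892) and with the spread taken from these 2 groups alone (0.0953, 0.0869 and 0.107). The Csf3r call was also lost without MRT rat 14 or BB rat 45 or 48 (0.0507 to 0.0612), and the Lcn2 call without MRT rat 9, 11, 12, 13 or 14 or BB rat 44, 45 or 49 (0.053 to 0.0814). S100a9 differed by 1.26 ± 0.54, Il1r2 by 0.77 ± 0.37 and Fcnb by 0.42 ± 0.45, which did not pass the test. S100a9 passed without MRT rat 7 (0.0373) or BB rat 47 (0.0329). At 48 h 0 of 6 were called between the beams (background 0%); limma gave 2 of 6 transcripts and 515 of 14217 genes at an unadjusted p under 0.05. The 2 were S100a8, at 37 to 86 after MRT against 27 to 36 after BB, and S100a9, at 90 to 199 against 33 to 65. Neither overlapped between the beams, and nor did Fcnb, at 411 to 860 against 239 to 404. The share of all genes without overlap was not counted. None was called at 8 d (background 1.27%) or 15 d (3.05%), and none had an unadjusted p under 0.05 there in limma. At 8 d Lcn2 and Csf3r passed without BB rat 55 (adjusted p 0.00443 and 0.0181).

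From 6 h to 48 h after MRT the tumors lost part of the calprotectin and Lcn2 signal. S100a9 fell by 1.66 ± 0.50, S100a8 by 1.21 ± 0.38 and Lcn2 by 0.81 ± 0.22 on the log2 scale (3 of 6 lower, background 2.19%, adjusted p from 0.0155 to 0.0344, limma). The S100a8 and S100a9 calls were lost without MRT rat 14 at 6 h (adjusted p 0.0765 and 0.0504), and the S100a8 call also without rat 6, 8, 11, 12 or 13 (0.0506 to 0.0681). At 48 h S100a9 was 30, 40, 42 and 59 in untreated tumors and 90, 151 and 199 as lowest, median and highest in 8 MRT tumors. The groups did not overlap, but the difference of 1.83 ± 0.63 did not pass the test (adjusted p = 0.12, limma). Fcnb was called at 48 h (1 of 6 higher, background 1.86%), with 117, 132, 145 and 176 in untreated tumors and 411, 600 and 860 after MRT. That difference was 2.09 ± 0.53 (adjusted p = 0.0181, limma) and lost the call without untreated rat 16 (0.0884) or 17 (0.0794). With the spread taken from the MRT and untreated groups at 48 h alone, 5 of 6 were called. The share of all genes called in that fit was not counted.

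After the broad beam S100a9 fell by 2.05 ± 0.66 in tumors from 6 h to 48 h (1 of 6 lower, background 11.4%, adjusted p = 0.0203, limma), to 33, 47, 49 and 65. That call was lost without BB rat 47, 48 or 52 (adjusted p 0.0678, 0.0686 and 0.0636) and with the spread taken from these 2 groups alone (0.0891). None of the 6 differed by the test from untreated tumors at 48 h after BB (background 1.37% called higher), and none had an unadjusted p under 0.05 in limma. With the spread taken from these 2 groups alone Fcnb passed (0.0328). The S100a9 difference there was 0.18 with a 95% interval from -1.28 to 1.64, which still holds a change of more than 1 in either direction.

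At 8 d 5 of 6 transcripts were higher in MRT tumors than in untreated tumors, against a background of 21.8% called higher. Fcnb had 109, 227, 1106 and 1121 in untreated tumors and 1815, 2168, 2240, 2268, 2621, 3795 and 4954 after MRT. The groups did not overlap, and the difference was 2.68 ± 0.54, or 6.40-fold (adjusted p = 6.54e-05, limma). Csf3r had 31, 63, 75 and 103 in untreated tumors and 116, 214 and 472 as lowest, median and highest after MRT, again with no overlap (1.90 ± 0.34, adjusted p = 9.99e-06, limma). Lcn2 had 16, 17, 20 and 24 in untreated tumors and 21, 47 and 83 after MRT (1.20 ± 0.29, adjusted p = 6.69e-04, limma).

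The calprotectin genes were uneven among the MRT tumors at 8 d. S100a9 was 65, 103 and 111 in rats 38, 33 and 37, next to 60, 64, 96 and 102 in untreated tumors, and 346, 353, 573 and 759 in rats 36, 32, 34 and 35. S100a8 and Il1r2 had their 3 lowest values in the same rats 33, 37 and 38, with S100a8 at 42, 49 and 30 and Il1r2 at 26, 25 and 26. Fcnb did not share that order, since rat 33 had the highest Fcnb of all arrays, 4954. The differences from untreated were 1.58 ± 0.64 for S100a9 and 1.35 ± 0.50 for S100a8 (adjusted p = 0.0382 and 0.0218, limma). Both calls were lost without untreated rat 27 (0.1 and 0.0656), the S100a9 call also without untreated rat 28 (0.0535) or 29 (0.0831), and both with the spread taken from these 2 groups alone (0.0554 and 0.0707). After quantile normalization the S100a9 difference had an adjusted p of 0.0563, and with arrays set to a common median 0.0511. Il1r2 differed by -0.61 ± 0.44, with 67, 76, 89 and 97 in untreated tumors and 25, 47 and 156 as lowest, median and highest after MRT.

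From 48 h to 8 d after MRT, Fcnb rose by 2.15 ± 0.45, Csf3r by 1.09 ± 0.28 and Lcn2 by 0.72 ± 0.24 in tumors (3 of 6 higher, background 12.3%, adjusted p from 1.42e-04 to 0.0167, limma), while S100a9 changed by 0.67 ± 0.53 and S100a8 by 0.47 ± 0.41. From 8 d to 15 d none of the 6 changed by the test (background 27.9% called in either direction). Limma gave 2 of 6 transcripts and 5783 of 14217 genes at an unadjusted p under 0.05 there. The 2 transcripts were Lcn2 with -0.59 ± 0.29 and Csf3r with -0.79 ± 0.34.

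BB tumors at 8 d were split in the same way. S100a9 was 45 and 47 in rats 54 and 56 and 292 and 734 in rats 57 and 55, and Fcnb was 3395, 232, 1299 and 4497 in rats 54, 56, 57 and 55. Against untreated tumors Fcnb was higher by 1.81 ± 0.61 and Csf3r by 1.36 ± 0.38 (2 of 6 higher, background 8.36%, adjusted p = 0.0271 and 0.00918, limma). Both calls were lost without untreated rat 27 (0.201 and 0.0766) or BB rat 55 (0.17 and 0.134), and the Fcnb call also without untreated rat 30 (0.0974) or BB rat 54 (0.127). Neither was called with the spread taken from these 2 groups alone (0.279 and 0.167). From 48 h to 8 d after BB, Fcnb rose by 2.27 ± 0.61 (1 of 6 higher, background 5.79%, adjusted p = 0.0137, limma), which was lost without rat 54 (0.0675) or 55 (0.131) and with these 2 groups fitted alone (0.165). Csf3r differed by 1.08 ± 0.38 (adjusted p = 0.059, limma) and passed without BB rat 53, 56 or 57 (0.0154 to 0.041). At 15 d, where there was no untreated group, S100a9 was 77, 138, 183 and 280 in MRT tumors against 143, 189, 190 and 398 in BB tumors, and Fcnb ran from 903 to 2256 and from 700 to 2286.

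Untreated tumors themselves differed between times. Il1r2 rose from 24, 28, 31, 37 and 59 at 6 h to 67, 76, 89 and 97 at 8 d (1.26 ± 0.47, adjusted p = 0.0391, limma), with no overlap. Fcnb rose by 1.77 ± 0.58 (adjusted p = 0.0177, limma) with 1106 and 1121 in rats 28 and 29 and 109 and 227 in rats 27 and 30, and this call was lost without rat 28 (0.118) or 29 (0.105) and with these 2 groups fitted alone (0.0511). These were 2 of 6 higher against a background of 16%. The Il1r2 call was lost without any of rats 2, 3, 4, 27, 28 and 30 (0.0604 to 0.0973). With the mean of 12 neuron markers as a covariate, Il1r2 differed by 0.16 and Fcnb by 1.72, neither of them called.

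Without treatment, 3 of 6 transcripts were higher in tumor than in contralateral hemisphere over the 3 times, against a background of 40.5%. Fcnb was higher by 1.55 ± 0.30, Il1r2 by 1.19 ± 0.23 and Csf3r by 0.54 ± 0.19 (adjusted p from 2.77e-06 to 0.00625, limma), while S100a9 differed by 0.58 ± 0.36, S100a8 by 0.15 ± 0.28 and Lcn2 by -0.17 ± 0.16. With the neuron markers as a covariate, Il1r2 differed by 0.21 and Csf3r by 0.47, and neither was called. At 6 h after MRT none of the 6 differed by the test between tumor and hemisphere (background 64.4% called in either direction), and none had an unadjusted p under 0.05 in limma. The tumor minus hemisphere difference was then -0.30 for S100a9, with a 95% interval from -1.15 to 0.55. At 8 d after MRT all 6 were higher in the tumor (background 32.3%), from 0.90 ± 0.23 for Lcn2 to 4.39 ± 0.43 for Fcnb (adjusted p at most 4.89e-04, limma). Only the Il1r2 call of these 6 was lost with the neuron markers as a covariate (0.66, adjusted p = 0.111).

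The effect of MRT was then compared between tissues by an interaction term. At 6 h 0 of 6 effects differed between tumor and hemisphere (background 0.886%), and none had an unadjusted p under 0.05 in limma. The S100a9 effect was smaller in the tumor by 0.93 on the log2 scale (estimate -0.93), with a 95% interval from -2.35 to 0.49. At 48 h 0 of 6 differed (background 2.48%). At an unadjusted p under 0.05 limma gave 2 of 6 transcripts, S100a9 (2.07 ± 0.79) and S100a8 (1.44 ± 0.62), and 2779 of 14217 genes. At 8 d the effect was larger in the tumor for Fcnb by 1.75 ± 0.69 and for Csf3r by 1.41 ± 0.43 (2 of 6, background 15.4%, adjusted p = 0.0372 and 0.0067, limma). Both calls were lost without untreated tumor rat 27 (0.229 and 0.052), and the Fcnb call also without untreated tumor rat 30 (0.108) or untreated hemisphere of rat 29, 30 or 39 (0.0837, 0.0648 and 0.0599). Lcn2 differed by 0.81 ± 0.37 (adjusted p = 0.0706, limma), and by 0.84 with the rat as a block, where it passed (0.0375). The effect of BB at 6 h did not differ between tissues for any of the 6 (background 1.53%), and none had an unadjusted p under 0.05 in limma.

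**Figure D4:**
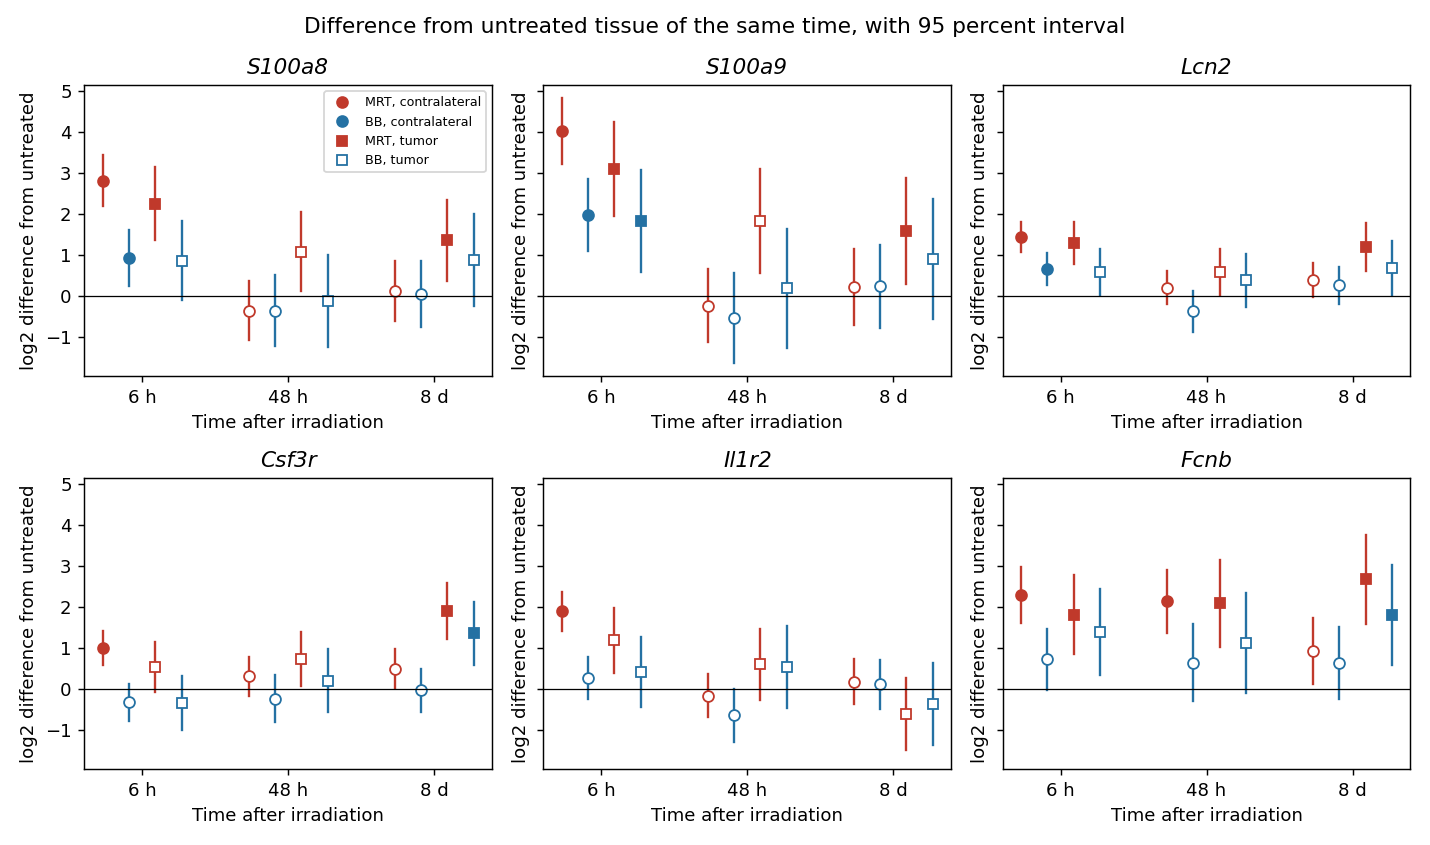
Difference from untreated tissue of the same time (log2 scale) for each transcript after MRT and BB in the contralateral hemisphere (circles) and the tumor (squares), with 95% intervals; filled symbols passed the test. S100a9 at 6 h is the largest difference among those drawn (4.03 in the hemisphere), and at 8 d the filled symbols are all tumor values.

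Rats of a group varied together in some of these transcripts. After group means were removed, S100a8 and S100a9 had a Pearson r of 0.927 and a Spearman rho of 0.911 over 59 tumors, and 0.94 and 0.708 over 56 hemispheres (permutation p = 1e-05 each, the smallest that 100000 shuffles within groups can give; adjusted p = 5e-05 over 30 relations). Without the 2 arrays farthest from the median of S100a8, r was 0.908 in tumors and 0.833 in hemispheres. In tumors S100a9 went with Il1r2 (r 0.733, rho 0.657) and less with Fcnb (r 0.388, rho 0.332), and Csf3r went with Fcnb (r 0.67, rho 0.629), with adjusted permutation p at most 0.036 for each of these. In hemispheres S100a9 and Lcn2 had r 0.268 and rho 0.178 (adjusted permutation p = 0.24 and 0.22). The hemisphere values rest in part on rats 7 and 10 at 6 h: S100a9 and Il1r2 had r 0.698 over 56 hemispheres and 0.299 without the 2 farthest arrays. The difference between these correlations was not tested.

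**Figure D5:**
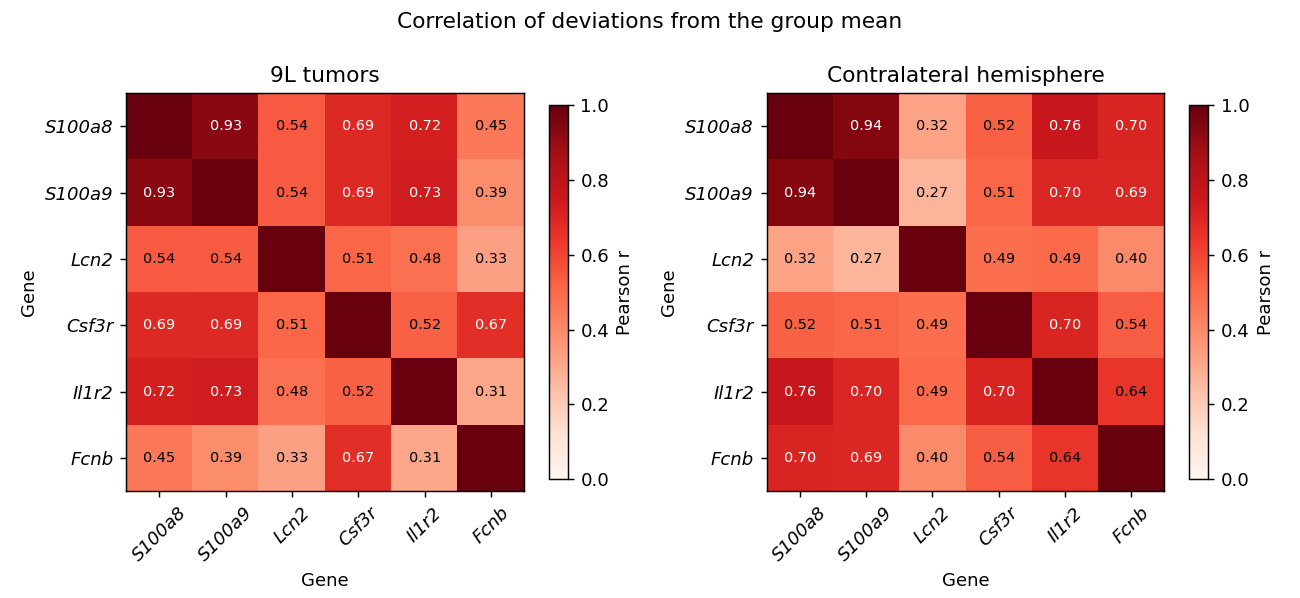
Pearson r between each pair of transcripts over 59 tumors (left) and 56 contralateral hemispheres (right), after the mean of each group was removed; both axes list the 6 genes and color gives r. S100a8 with S100a9 is the highest pair in both tissues (0.93 and 0.94), and S100a9 with Lcn2 in hemispheres is the lowest shown (0.27).

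Between the tissues of a rat, each transcript had a lower r with itself than S100a8 had with S100a9 within a tissue. Some pairs within a tissue had a low r as well, such as S100a9 with Lcn2 in hemispheres (0.268). Over 55 rats with both tissues, deviations from the group mean had r 0.439 and rho 0.386 for Fcnb, 0.384 and 0.245 for S100a8, 0.351 and 0.35 for Lcn2 and 0.328 and 0.217 for Il1r2 (adjusted permutation p = 0.035 for each r and 0.054 to 0.15 for each rho, over 6 relations). Csf3r had r 0.251 and rho 0.295, and S100a9 0.242 and 0.159 (adjusted permutation p for r = 0.058 and 0.085). Without the 2 farthest rats the r of S100a8 was 0.27.

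The other genes of the neutrophil pathway came from lists that were set with earlier results known. Of 30 granule and surface genes, 13 were measured; Mpo, Elane, Ltf and Fpr1, which define granules and surface of the neutrophil, were not among the genes with a probe set of their own and were not analysed here. In the hemisphere 6 h after MRT 6 of the 13 rose and 0 fell, with a median difference of 0.50 against -0.01 over all genes, of which 5.36% were called higher and 2.86% lower. Cybb, an oxidase subunit shared with macrophages, rose by 2.11 ± 0.25, Itgb2, a leukocyte integrin chain, by 0.95 ± 0.19 and Cxcr2 by 0.83 ± 0.17 (adjusted p at most 3.33e-04, limma). Cxcr2 had 19 to 25 in untreated hemispheres and 25 to 49 after MRT, and Mmp8, the neutrophil collagenase, had 13 to 17 and 17 to 24. Camp, a granule antimicrobial peptide, had 31 to 38 and 34 to 46 and did not pass the test. At 48 h in the hemisphere 3 of 13 were higher and 3 lower, where 13.2% of all genes were called higher and 19% lower. The 3 higher were Cybb by 3.95 ± 0.29, Itgb2 by 1.37 ± 0.22 and Itgam, the partner chain of Itgb2, by 0.84 ± 0.16. Without untreated rat 18 the same 3 were higher and 0 of 13 lower, against 5.74% and 2.8% of all genes. Cxcr2 was 18 to 22 in MRT hemispheres at 48 h and 20 to 70 in untreated ones, with a median of 22. In tumors at 6 h 1 of 13 rose (background 1.01%), Cxcr2 by 0.52 ± 0.14 (adjusted p = 0.0348, limma). At 8 d in MRT tumors 7 of 13 were higher and 1 lower, where 21.8% of all genes were called higher and 26.1% lower, and Cxcr2 differed by 0.21 ± 0.15 (adjusted p = 0.276, limma).

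Some of the genes that draw neutrophils in rose at the same time. Of all genes, 5.36% were called higher in the hemisphere and 1.01% in tumors 6 h after MRT. Of 11 measured neutrophil attractants and growth factors, 3 rose in the hemisphere 6 h after MRT: the chemokines Cxcl2 by 3.95 ± 0.34 and Cxcl1 by 3.88 ± 0.30, and Il6 by 2.02 ± 0.20 (adjusted p at most 2.92e-11, limma). In tumors 2 of 11 rose at 6 h, Cxcl2 by 2.98 ± 0.61 and Cxcl1 by 2.13 ± 0.54 (adjusted p = 0.00258 and 0.0225, limma). Of 10 genes of the interleukin 1 system, 6 rose in the hemisphere, led by Il1b with 4.14 ± 0.30, and 1 in tumors, Il1b with 2.24 ± 0.39. Of 5 endothelial adhesion molecules, 4 rose in the hemisphere, with E-selectin (Sele) up by 5.08 ± 0.18 and Icam1 by 3.65 ± 0.23, and 3 in tumors, with Sele up by 2.61 ± 0.35 and Icam1 by 1.56 ± 0.28. After BB at 6 h in the hemisphere Sele rose by 4.38 ± 0.20, Cxcl1 by 1.53 ± 0.33 and Cxcl2 by 1.08 ± 0.37. At 48 h after MRT 6 of the 11 attractants and growth factors were lower than untreated in the hemisphere and 0 higher, where 19% of all genes were called lower. Untreated rat 18 had a sum of 862 for these 11 genes against 453 to 501 in the other untreated hemispheres at 48 h and 427 to 492 after MRT, and without that array 2 of the 11 were lower, against 2.8% of all genes.

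Markers of other cells moved as well. In the hemisphere 6 h after MRT, where 5.36% of all genes were called higher and 2.86% lower, 7 of 10 reactive astrocyte markers rose, 4 of 6 microglia markers fell, and of 14 macrophage and monocyte markers 5 rose and 4 fell, with Cd14 up by 3.65 ± 0.25 and Csf1r down by 1.07 (difference -1.07 ± 0.16). The summed intensity of the macrophage list was 4401 to 4634 in untreated hemispheres and 4664 to 11896 after MRT. The sums were 4089 to 7589 and 9158 to 14299 for reactive astrocytes and 1454 to 1710 and 406 to 1005 for microglia. Of 7 red cell and platelet markers none was called in either tissue 6 h after MRT, and Hbb, a globin gene of red cells, ran from 561 to 7188 in untreated hemispheres and from 666 to 6228 after MRT. In tumors at 8 d 47.8% of all genes were called, 21.8% higher and 26.1% lower. There all 14 macrophage and monocyte markers and all 10 T and NK cell markers were higher after MRT, and so were 10 of 12 neuron markers, while all 8 genes of 9L cells and mitosis were lower. The macrophage sum there was 13309 to 39123 without treatment and 56361 to 81989 after MRT, with no overlap, and the neuron sum was 3219 to 11657 and 10633 to 38465. The part of these cells in the values of Lcn2, Csf3r and Fcnb was not tested.

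Over all arrays of a tissue, without a test, the genes most like S100a9 in pattern were Ccl20 (r 0.958), Angptl4 (0.933) and Ccr1 (0.909) in 56 hemispheres and Ccr1 (0.831), Ccl2 (0.82) and Ccl7 (0.81) in 59 tumors. For S100a8 they were Ccl20 (0.949), Ccr1 (0.929) and Saa3 (0.907) in hemispheres and Ccr1 (0.821), Cxcl2 (0.811) and Ccl7 (0.777) in tumors. Fcnb was most like Napsa (0.908), Lypd8l1 (0.871) and Ly6c (0.868) in hemispheres and Lypd8l1 (0.942), Ly6c (0.931) and Gbp4 (0.916) in tumors. Lcn2 was most like Gch1 (0.87) in hemispheres and Angptl4 (0.78) in tumors. Csf3r was most like Mefv (0.754) in hemispheres and Tlr2 and Ncf4 (0.867 each) in tumors, and Il1r2 was most like Saa3 (0.926) and Smndc1 (0.722). These arrays share groups and times, which enter the r.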

How the data were processed

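Total RNA (200 ng) was labelled and hybridised to Affymetrix arrays, 1 array for each tissue of a rat, per the labels' protocols. The deposited table holds intensity values that the authors normalized with RMA, per the submitters' processing notes, which name Affymetrix Expression Console; 80 arrays are also noted with MAS5 and the 35 BB arrays with RMA only. The values are linear whole numbers from 7 to 27837, not the log2 values that had been planned for, so log2 of the deposited intensity was taken here. They carry no detection call, and dim transcripts may lie near background. The number of arrays limits the precision.

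Of 31099 probe sets, 57 controls, 436 with several genes and 9780 with none were left out, and the brightest of each gene was kept. limma 3.58.1 in R 4.3.3 (lmFit, eBayes with trend) was fitted to each tissue, or to all arrays for differences between tissues, with Benjamini-Hochberg adjustment over 14217 genes. Scripts were tested on simulated data. The rat number pairs the tissues, since both come from 1 animal: 38 of 55 rats had a correlation of deviations over 0.1 between their tissues (median 0.186). Correlations were tested by 100000 shuffles within groups. Rats are separate animals.

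The members and lists were chosen with earlier results of these data known. Besides the members, the text names at most the 3 called genes of largest moderated statistic in a list, defining markers, and the 3 genes of highest r with a member. Alternatives were other normalizations, filters and variance settings, array weights, fits of the compared groups alone, neuron markers as a covariate, the rat as a block and arrays left out in turn. No column of the table was unused.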

Additional observations from a re-analysis of the deposited data

Results flagged for a closer look

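Over the 6 transcripts and the sample groups of 4 to 10 arrays, 126 sets of values of 1 transcript in 1 group were tested, and in 10 of them 1 array lay far from the rest by Dixon's criterion, which chance meets in about 1 of 20 sets. In tumors, Fcnb was 2286 in BB rat 61 at 15 d (next 747), Lcn2 was 99 in BB rat 55 at 8 d (next 22) and 17 in BB rat 53 at 48 h (next 25), and S100a8 was 92 in untreated rat 5 at 6 h (next 33) and 37 in MRT rat 19 at 48 h (next 66). Il1r2 was 82 in the BB tumor of rat 58 at 15 d (next 58) and 18 in the untreated tumor of rat 17 at 48 h (next 34). In hemispheres, Il1r2 was 28 in MRT rat 22 at 48 h (next 21) and 24 in untreated rat 3 at 6 h (next 18), and S100a9 was 47 in untreated rat 30 at 8 d (next 34). Rat 53 is the array with the largest Gapdh 3′ to 5′ difference, 2.35 on the log2 scale, and its part in the Lcn2 value was not tested.

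The effect of MRT at 8 d differed between tumor and hemisphere by the interaction term of limma, by 1.75 for Fcnb (adjusted p = 0.0372) and by 1.41 for Csf3r (adjusted p = 0.0067). Both calls were lost without untreated tumor rat 27 (adjusted p = 0.229 and 0.052, limma). The Fcnb call was also lost without any of several other untreated arrays, as given above.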

How the results depend on the processing

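No called difference of a member changed sign in any alternative that was run, and the 59 calls were kept in 58 cases after quantile normalization, 57 with a common median, 59 each with the median of a gene's probe sets, a constant variance prior and without the dimmest 30% of the other genes (chosen after seeing the data), 58 with array weights, 50 with neuron markers as a covariate and 32 of 48 when only the groups compared were fitted. Each member has 1 probe set, so the median of a gene's probe sets left the member values unchanged. Keeping the calls in that setting was thus nearly fixed in advance. Without the dimmest 30% of all genes only 1 member, Fcnb, remained, and its 14 calls were kept. With the rat as a replicate block all 11 calls between tissues were kept and the Lcn2 interaction at 8 d was 0.84 and called. Leaving out 87 arrays in turn (the 6 h groups of 6 and 9 were added after seeing the data) ended 80 of 568 calls, from 21 results; MRT groups of 6 to 8 arrays at 48 h and 8 d were not run. The causes were not tested.

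The number of the 6 members called moved as follows. For the settings listed here and below, the share of all genes called was not counted, so these counts stand without a background. With array weights it became 2 in tumors for MRT against untreated at 48 h, 4 for BB against untreated at 8 d, 5 for MRT against BB at 6 h and at 8 d, 2 for MRT from 8 d to 15 d, 0 for BB from 6 h to 48 h and 3 for BB from 48 h to 8 d. In hemispheres it became 2, 1 and 2 for MRT against BB at 48 h, 8 d and 15 d and 5 for BB from 6 h to 48 h. Between tissues it became 2 for MRT at 6 h and 1 and 5 for the interaction at 48 h and 8 d. Fitting only the groups compared gave, in tumors, 5 and 3 for MRT against untreated at 48 h and 8 d, 0, 1 and 0 for BB against untreated at 6 h, 48 h and 8 d, 0 for MRT against BB at 6 h, 1 for untreated from 6 h to 8 d, and 0 for BB from 6 h to 48 h and from 48 h to 8 d. In hemispheres it gave 2 for MRT against untreated at 8 d, 5 for BB against untreated at 6 h, 2, 2 and 1 for MRT against BB at 6 h, 48 h and 15 d, and 5 for BB from 6 h to 48 h. The neuron covariate gave 0 for BB against untreated at 6 h and for untreated from 6 h to 8 d in tumors, 2 for BB from 48 h to 8 d, 0 for MRT against BB at 48 h in hemispheres, 1 for untreated tumor against hemisphere and 1 for the interaction at 8 d. The common median gave 2 for BB against untreated at 6 h, 2 for BB from 48 h to 8 d in tumors and 2 for BB from 6 h to 48 h in hemispheres. Quantile normalization and leaving out the dimmest 30% of the other genes each gave 2 for BB against untreated tumors at 6 h.

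With arrays left out in turn the count ran in tumors from 0 to 2 for BB against untreated at 6 h, 0 to 1 and 3 to 5 for MRT against untreated at 48 h and 8 d, 0 to 3 for BB against untreated at 8 d, 0 to 4 and 0 to 2 for MRT against BB at 6 h and 8 d, 0 to 2 for untreated from 6 h to 8 d, 1 to 3 for MRT from 6 h to 48 h, 0 to 1 for BB from 6 h to 48 h and 0 to 2 for BB from 48 h to 8 d. It was 0 to 0 for MRT against BB at 48 h in hemispheres and 0 to 2 for the interaction at 8 d. Sign changes were followed only for the 103 of 210 member results called in the main setting or in an alternative that kept every array. Among these, the uncalled differences that changed sign were those of tumors. S100a9 for BB against untreated at 8 d was -0.82 with array weights, and S100a9 for untreated from 6 h to 8 d was -0.066 with the neuron covariate. Il1r2 for MRT against BB at 8 d was 0.89 with array weights and 0.20 with the neuron covariate, and ran from -0.68 to 0.30 with arrays left out in turn. Lcn2 for BB from 48 h to 8 d was -0.35 with array weights and ran from -0.15 to 0.64, and Il1r2 for BB against untreated at 8 d ran from -0.91 to 0.071.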
